A study of Mus musculus with 50 samples.

Results

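Fos, Fosb, Fosl1, Fosl2, Jun, Junb, Jund, Atf3, Egr1 and Ier2 are 10 genes of the AP-1 and immediate early group. They were chosen by symbol, and each matched 1 of the 53700 genes counted in hippocampal microglia of 50 mice. In GRCm39 Fos lies at chr12:85520658-85524047, Fosl2 at chr5:32292707-32315186, Jun at chr4:94937271-94940459 and Atf3 at chr1:190902493-190950241, while Junb (chr8:85701113-85705359), Jund (chr8:71151599-71153265) and Ier2 (chr8:85387960-85389483) share a chromosome. The mice were C57BL/6J males. They were raised in control (CTR) conditions or under early-life stress (ELS), for which the dam had limited bedding and nesting material from P2 to P9. Microglia of P9-CTR (n = 12) and P9-ELS (n = 13) mice were taken at 9 days without treatment. Other mice were kept to 200 days and received PBS (P200-CTR-PBS, n = 7, and P200-ELS-PBS, n = 6) or lipopolysaccharide (LPS), a bacterial cell wall component, at 1 mg/kg i.p. (P200-ELS-LPS, n = 5, and P200-CTR-LPS, n = 7) 3 h before they were killed. No allele or transgene is given for any group, and each library held poly-A RNA of sorted CD45int CD11b+ cells of 1 mouse.

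AP-1 is a dimer of bZIP proteins in which a Jun protein (Jun, Junb, Jund) pairs with itself or with a Fos protein (Fos, Fosb, Fosl1, Fosl2) or an ATF protein such as Atf3. Most of these genes are immediate early genes, which means that signalling through MAP kinases, serum response factor and CREB switches on their transcription within minutes, without new protein synthesis, and that their RNA is short-lived. In microglia, Toll-like receptor signalling is a textbook trigger of these genes, and tissue dissociation is known to induce them as well.

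Promoter sequences are printed for 3 members that rose after LPS (Fos, Junb, Ier2). Those of Fosb, without detectable expression after LPS, and of Atf3, not called after LPS, stand beside them. The sequences below show which of the sites for these inputs lie in the stretch printed. They were read from GRCm39, 5′ to 3′ on the gene's strand, ahead of the start of the GENCODE canonical transcript, and do not overlap an annotated exon. For Atf3 this start lies inside the annotated gene, which reaches to chr1:190950241, and the bases ahead of that end were not searched. The stretches printed differ in length, from 138 bases (Junb) to 300 bases (Fos), so that their sites cannot be compared directly. In the 500 bases searched, further sites lay outside the stretches, such as TGACG 334 bases upstream for Fos and 317 for Fosb. Capitals mark a CArG box (the site of serum response factor), the cAMP response element TGACGTCA or its first 5 letters TGACG, a kappa B consensus, and TATAAA on the gene's strand. The other motifs were searched on both strands, and TGACG is contained in TGACGTCA.
Fos (chr12:85520355-85520654, plus strand): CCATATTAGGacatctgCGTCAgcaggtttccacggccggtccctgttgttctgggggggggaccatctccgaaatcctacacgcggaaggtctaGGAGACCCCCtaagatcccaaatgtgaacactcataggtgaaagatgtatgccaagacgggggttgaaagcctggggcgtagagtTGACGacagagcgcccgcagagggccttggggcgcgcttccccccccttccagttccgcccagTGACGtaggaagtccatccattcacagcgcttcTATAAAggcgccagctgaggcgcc
Fosb (chr7:19043977-19044246, minus strand): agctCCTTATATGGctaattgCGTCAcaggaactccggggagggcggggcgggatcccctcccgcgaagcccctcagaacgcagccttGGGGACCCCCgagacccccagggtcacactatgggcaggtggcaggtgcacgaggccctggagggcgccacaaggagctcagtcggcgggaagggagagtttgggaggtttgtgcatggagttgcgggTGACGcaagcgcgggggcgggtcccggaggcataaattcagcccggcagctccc
Junb (chr8:85705360-85705497, minus strand): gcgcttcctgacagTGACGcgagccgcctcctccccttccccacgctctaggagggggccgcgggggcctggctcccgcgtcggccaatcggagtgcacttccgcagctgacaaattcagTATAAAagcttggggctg
Ier2 (chr8:85389484-85389633, minus strand): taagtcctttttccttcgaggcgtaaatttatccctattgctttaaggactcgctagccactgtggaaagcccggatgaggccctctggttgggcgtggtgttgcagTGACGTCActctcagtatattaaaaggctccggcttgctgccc
Atf3 (chr1:190915538-190915687, minus strand): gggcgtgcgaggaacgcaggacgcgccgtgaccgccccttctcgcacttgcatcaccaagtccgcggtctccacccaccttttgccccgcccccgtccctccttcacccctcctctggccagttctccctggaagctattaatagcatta

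In the 500 bases ahead of the start, Fos and Fosb held a CArG box, 303 and 266 bases upstream, and each was followed at the same distance by TGACG on the opposite strand, 286 and 249 bases upstream. A CArG box was found in 2 of 10 members and in 2.78% of the 21626 protein-coding promoters searched. TGACGTCA was found for Jund and Ier2, 214 and 43 bases upstream, and in 1.95% of all promoters. Fos and Junb held TATAAA, 27 and 30 bases upstream, as 15.5% of all promoters did, and a kappa B consensus was found for Fos and Fosb and in 12.2% of all promoters. TGACG was found in 8 of 10 members and in 25.8% of all promoters. The AP-1 site TGACTCA itself was found in none of the 10 and in 7.59% of all promoters, and the EGR site GCGTGGGCG in none of the 10 and in 0.731%. These matches describe letters in a window, and binding was not measured.

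Total counts ranged from 5152838 to 42231258 per mouse. Libraries of 3 mice stood apart by few detected genes, namely P9_19.3_ELS (12482 genes), P200_1.1_CTR_PBS (12854) and P9_19.2_ELS (15731), and results were also computed without them. All 8 microglia markers were detected at a summed level of 35708 to 81086 CPM (counts scaled to an equal library size by TMM) per mouse. Markers of monocytes and neutrophils did not exceed 11.0 CPM in sum in any mouse, with 5 of 7 at a median of 0 in every group, and the lymphocyte markers did not exceed 0.675 CPM. Markers of neurons (71.4 to 197 CPM in P9-CTR, 2.54 to 15.15 at P200) and of border-associated macrophages (547 to 916 CPM in P9-CTR, 1.80 to 9.62 at P200) were higher at P9.

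Of the 10 members, 9 passed the filter on low values (at least 1 CPM in more than 2 mice). Fosb, which encodes a Fos protein known from stimulated neurons, did not pass. It had 0 reads in 48 of 50 mice, 12 reads in mouse P200_15.1_CTR_PBS and 1 read in P200_5.1_CTR_PBS. In the 12 LPS mice together 0 reads allow a level of up to 0.0122 CPM (3 counts, counting error only). Fosb was not detectable after LPS at this depth. Fosl1 passed through 4 mice, all of them treated with LPS, so its presence among the tested genes rested on the group where it was high.

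**Figure D1:**
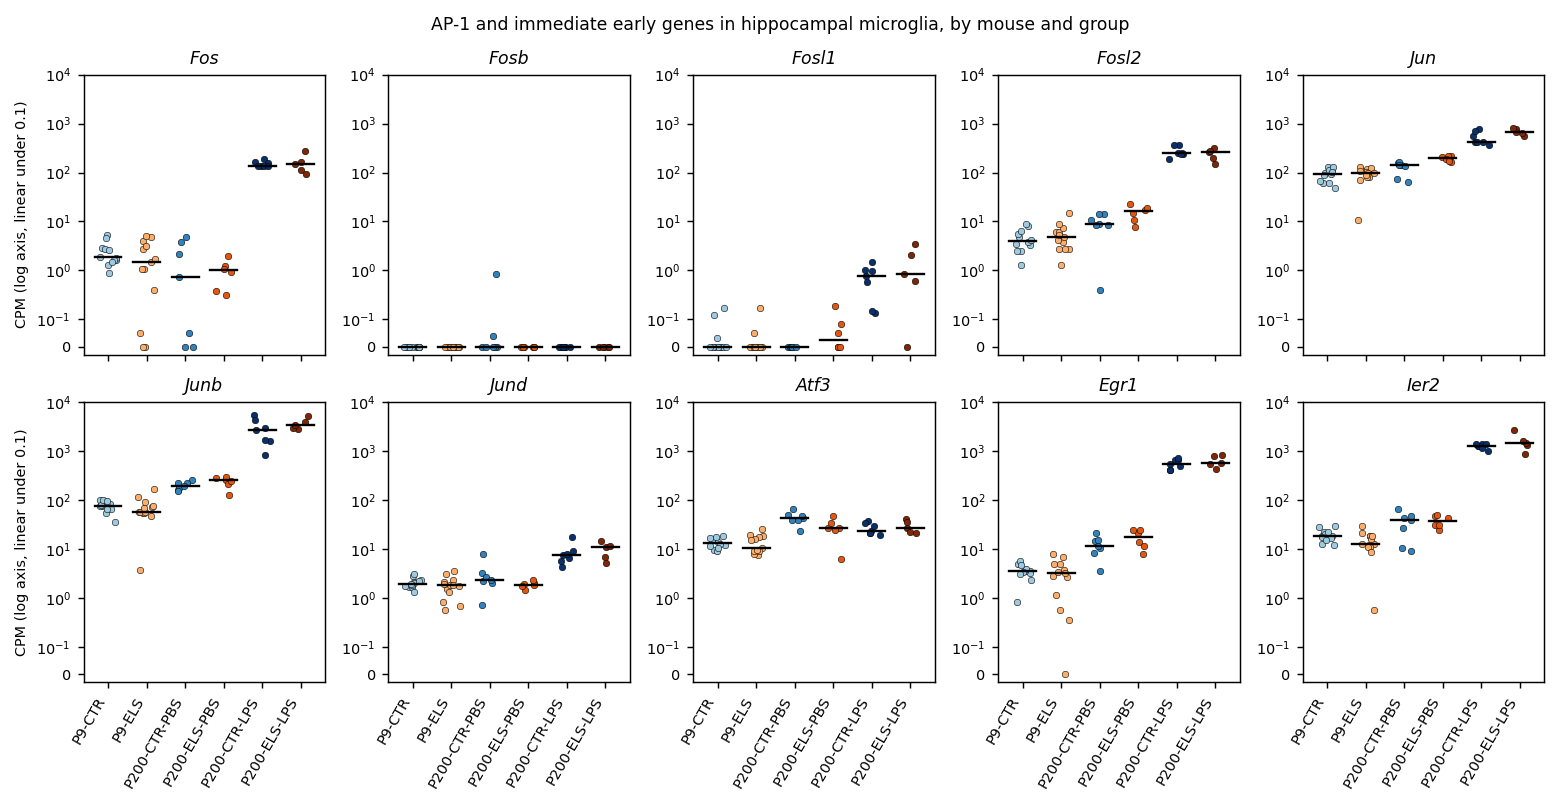
Expression of the 10 members in CPM on a log axis that is linear under 0.1, with 1 point per mouse and a line at the median of each group. After LPS, Fos, Fosl2, Jun, Junb, Egr1 and Ier2 lay above every PBS mouse of the same condition, Atf3 overlapped, and Fosb stayed at 0.

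LPS against PBS at P200 addressed the acute response to a systemic immune challenge. In CTR mice 8 of the 9 members tested rose (adjusted p under 0.05), where 14.9% of all genes tested were called in either direction and 8.73% rose. In ELS mice 8 of 9 rose as well, against 12.3% of all genes called and 7.4% higher. They were the same 8 genes, and both comparisons used different mice. In each, 7 of 9 did not overlap between treatments (all but Jund and Atf3 in CTR and all but Fosl1 and Atf3 in ELS), beside 4.92% and 5.65% of all genes that were higher without overlap. Fosl1, which is among the 7 without overlap in CTR and not in ELS, passed the filter through LPS mice. Without it 7 of 8 members rose in each condition. The counts of 8 were the same without the 3 libraries with few detected genes. At the median of the 9, the log2 fold change amounted to 4.86 in CTR and 3.95 in ELS, beside 0.00 and -0.04 over all genes tested. Each library pools the sorted cells of a mouse, so that more cells expressing a gene and more RNA per cell cannot be told apart.

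Fos, the founding Fos protein and a short-lived dimer partner of Jun, was near 0 after PBS. Its level was 0, 0.751 and 4.81 CPM in CTR-PBS (lowest, median and highest of 7 mice) and 133, 138 and 193 CPM in CTR-LPS. In ELS-PBS it was 0.310, 1.01 and 1.96 CPM, and the 5 ELS-LPS mice had 91.8, 111, 149, 165 and 281 CPM. No LPS mouse overlapped a PBS mouse. The log2 fold change was 6.48 ± 0.74 (SE, adjusted p = 1.23e-09) in CTR mice and 7.34 ± 0.84 (adjusted p = 1.93e-09) in ELS mice, estimates that rest on few reads in the PBS mice. In CTR the estimate was 7.38 with the nest as a replicate block and 8.49 in limma voom with the nest as random effect.

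Fosl2 encodes Fra-2, a Fos protein that lacks the transactivation domain of Fos and accumulates more slowly. It was 0.407, 8.91 and 14.3 CPM in CTR-PBS and 187, 250 and 371 CPM in CTR-LPS. In ELS mice it was 7.84, 16.0 and 22.9 CPM after PBS and 151, 195, 257, 280 and 313 CPM after LPS. The lowest CTR-PBS value came from the library with few detected genes, and the groups did not overlap. Fosl2 rose by 4.86 ± 0.44 (log2, adjusted p = 1.20e-12) in CTR and 3.95 ± 0.46 (adjusted p = 3.31e-09) in ELS.

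Fosl1 encodes Fra-1, the other Fra protein. It had no read in any CTR-PBS mouse, at most 0.192 CPM in ELS-PBS, and 0.133, 0.765 and 1.49 CPM in CTR-LPS. The ELS-LPS mice had 0, 0.618, 0.867, 2.03 and 3.54 CPM. Fosl1 was thus only a small part of the counts of the Fos family even after LPS. The rise was called in CTR (adjusted p = 0.000177), where the mean after LPS was 36.1 times a floor of 3 counts over the CTR-PBS group. This ratio leaves out the spread between LPS mice, of which the lowest (0.133 CPM) lay nearer the floor of 0.0201 CPM. The rise was also called in ELS, where the groups overlapped (4.55 ± 1.25, adjusted p = 0.0101). The ELS value was 3.88 without P200_2.2_ELS_LPS and 5.36 without P200_17.2_ELS_PBS. In the annotation 57.2% of the exon bases of Fosl1 also belong to Ccdc85b on the opposite strand. The strand setting of the counting is not given in the sources used here. Whether reads in the shared bases were counted for Fosl1, for Ccdc85b or for neither is thus not known.

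Of the Jun family, Jun and Junb were high already after PBS. Jun, the strong activator of the family, was 64.0, 142 and 165 CPM in CTR-PBS and 361, 429 and 785 CPM in CTR-LPS. In ELS mice it was 166, 196 and 219 CPM after PBS and 562, 646, 657, 767 and 797 CPM after LPS. The groups did not overlap, and the increase (2.06 ± 0.27, adjusted p = 4.74e-08, in CTR and 1.82 ± 0.30, adjusted p = 7.46e-06, in ELS) was small beside that of Fos. Of the exon bases of Jun 16.6% also lie in the antisense gene Junos, and how reads in these bases were counted is not known either.

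Junb, a weaker activator that can restrain Jun, reached the highest level of all members. It was 151, 195 and 259 CPM in CTR-PBS against 815, 2631 and 5363 CPM in CTR-LPS. In ELS it was 124, 249 and 296 CPM after PBS against 2751, 2948, 3414, 3956 and 5091 CPM after LPS. The CTR-LPS mice spread widely, from mouse P200_1.2_CTR_LPS as the lowest to both mice of nest 8 as the highest (4190 and 5363 CPM). Nest 8 stands for the part of the label that both mice share, which the labels do not define. Of the exon bases of Junb 7.27% also belong to Prdx2 on the opposite strand. Junb rose by 3.79 ± 0.38 (adjusted p = 2.35e-11) in CTR mice and by 3.95 ± 0.42 (adjusted p = 1.85e-10) in ELS mice.

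Jund, usually the constitutive Jun protein, had few reads here. It was 0.712, 2.36 and 7.98 CPM in CTR-PBS, and 4.29, 7.42 and 17.12 CPM in CTR-LPS. ELS mice had 1.45, 1.87 and 2.35 CPM after PBS and 5.16, 6.90, 10.7, 11.6 and 14.4 CPM after LPS. CTR groups overlapped through mouse P200_15.1_CTR_PBS, and ELS groups did not. The rise was 1.46 ± 0.36 (adjusted p = 0.00298) in CTR mice and 2.37 ± 0.42 (adjusted p = 2.71e-05) in ELS mice. Jund shares 52.6% of its exon bases with Gm11175 on the opposite strand, and its level is uncertain for the same reason as that of Fosl1.

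Egr1 and Ier2 are immediate early genes outside AP-1. Egr1, a zinc finger factor, was 3.47, 11.5 and 21.2 CPM in CTR-PBS and 402, 544 and 720 CPM in CTR-LPS. In ELS it was 7.83, 17.6 and 24.6 CPM after PBS and 436, 538, 574, 792 and 841 CPM after LPS. It rose by 5.51 ± 0.46 (adjusted p = 6.38e-14) in CTR mice and 5.21 ± 0.49 (adjusted p = 5.26e-12) in ELS mice. Ier2, a nuclear protein of the immediate early response, was 8.96, 38.7 and 64.6 CPM in CTR-PBS and 979, 1287 and 1381 CPM in CTR-LPS. In ELS it was 23.9, 36.4 and 49.6 CPM after PBS and 843, 1306, 1440, 1577 and 2628 CPM after LPS. Neither gene overlapped between treatments. Ier2 rose by 5.19 ± 0.41 (adjusted p = 1.60e-14) in CTR and 5.39 ± 0.45 (adjusted p = 1.38e-13) in ELS.

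Atf3, a stress-induced repressor that dampens inflammatory genes, was the member tested that was not called. It was 23.4, 41.8 and 66.1 CPM in CTR-PBS and 19.12, 22.7 and 37.6 CPM in CTR-LPS. In ELS it was 6.19, 26.6 and 46.8 CPM after PBS and 21.1, 22.4, 26.2, 35.8 and 40.4 CPM after LPS. The groups overlapped in both conditions. The log2 difference was -0.74 ± 0.28 in CTR (95% interval -1.29 to -0.18, adjusted p = 0.0651) and 0.09 ± 0.31 in ELS (-0.54 to 0.71, adjusted p = 0.913). The CTR difference was past the threshold in 4 of 9 other fits, such as that of only the groups compared (adjusted p = 0.0252), and when P200_1.2_CTR_LPS, P200_15.1_CTR_PBS or P200_4.1_ELS_PBS was left out (adjusted p = 0.0432, 0.0358 and 0.0335).

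**Figure D2:**
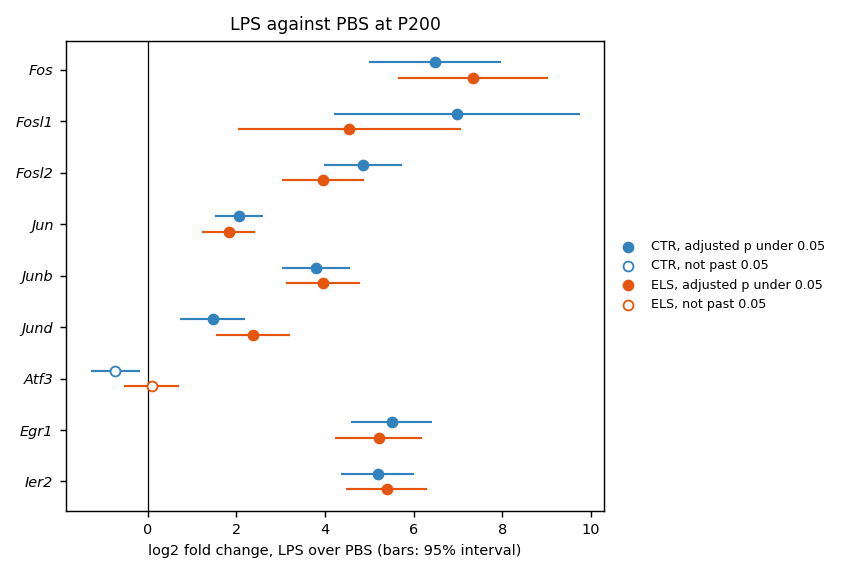
Log2 fold change of LPS over PBS for the 9 members tested in CTR and ELS mice, with bars for the 95% interval and filled points for an adjusted p under 0.05. Of the 9, 8 lie to the right of 0 in both conditions, from 1.46 (Jund in CTR) to 7.34 (Fos in ELS), and Atf3 lies at -0.74 and 0.09.

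Markers of other cells were set beside these changes. The monocyte and neutrophil markers summed to 0.712 to 8.98 CPM in CTR-PBS against 2.00 to 8.41 CPM in CTR-LPS. In ELS-PBS the sum was 3.50 to 11.0 CPM, and in ELS-LPS 0.878 to 9.66 CPM. Among the microglia markers, P2ry12 and Sall1 fell after LPS in both conditions (P2ry12 by 0.62 and 0.58, Sall1 by 1.73 and 2.01, log2). The sum of 5 astrocyte markers, mostly Slc1a3, was 299 to 503 CPM in CTR-PBS and 483 to 612 CPM in CTR-LPS. The sum of 5 endothelial markers was 39.3 to 71.1 CPM in CTR-PBS and 60.9 to 93.6 CPM in CTR-LPS. In ELS mice the astrocyte sum was 313 to 453 CPM after PBS and 417 to 584 CPM after LPS, and the endothelial sum 30.3 to 73.5 CPM and 45.1 to 99.7 CPM. Single markers called higher after LPS in CTR were Slc1a3 (log2 fold change 0.63), the endothelial genes Kdr (2.28) and Cdh5 (2.06) and the macrophage gene Cbr2 (3.37, with a median of 0.281 CPM after LPS). In ELS they were the astrocyte genes Gfap (3.92) and Gja1 (4.47), with medians of 1.05 and 2.07 CPM after LPS and 0 after PBS. Their part in the changes of the members was not tested.

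Within families the rise was unequal. Per kilobase of exon, Fos was 34.1% ± 28.6 (SD, n = 7) of the Fos-family level in CTR-PBS and 70.9% ± 5.56 (n = 7) in CTR-LPS, and 22.3% ± 12.4 (n = 6) and 71.5% ± 12.9 (n = 5) in ELS. Fosl2 went the other way, from 63.8% ± 26.2 to 28.8% ± 5.57 in CTR. These shares depend on the exon length, which covers all annotated transcripts (10397 bases for Fosl2 and 2358 for Fos). In CPM the mean of Fosl2 stayed above that of Fos after LPS, at 272 against 151 in CTR and 239 against 160 in ELS. In the Jun family Junb made up 67.2% ± 7.87 in CTR-PBS and 85.0% ± 5.79 in CTR-LPS, and 60.4% ± 9.05 and 87.1% ± 1.85 in ELS, where no LPS mouse overlapped a PBS mouse. Jund and Fosl1 enter these sums with uncertain levels, since 52.6% and 57.2% of their exon bases also belong to opposite-strand genes.

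**Figure D3:**
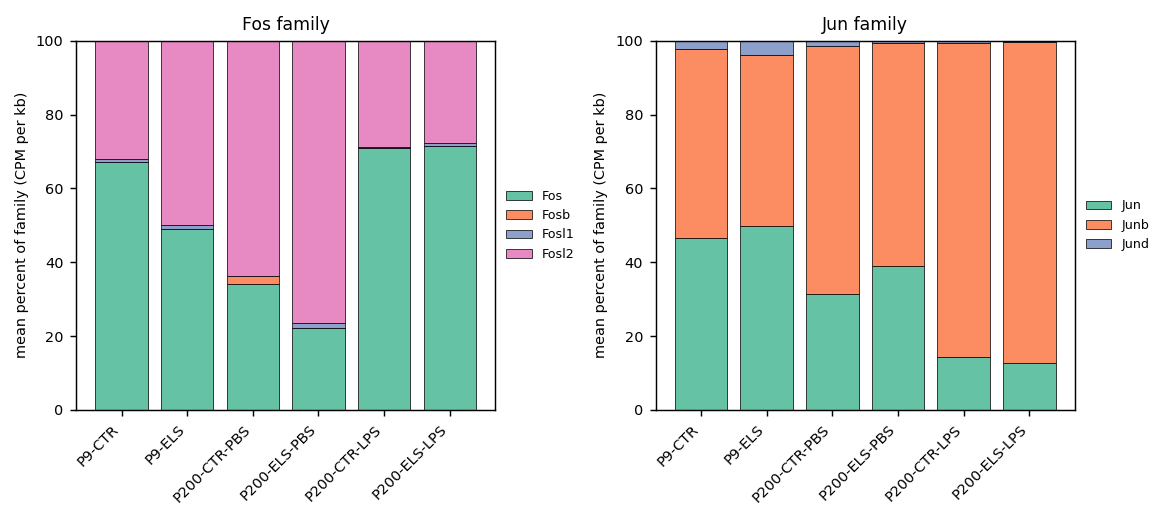
Mean percent of the Fos-family and Jun-family level (CPM per kilobase of exon) that each member made up in each of the 6 groups. Per kilobase, Fosl2 was the larger part of the Fos family in both PBS groups and Fos in both LPS groups, while the part of Junb was highest after LPS.

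By level per kilobase, the order in CTR-PBS was Junb (82.7 ± 16.4 CPM per kb, SD), Jun (39.6 ± 12.6), Ier2 (22.5 ± 13.3), Atf3 (17.9 ± 5.33), Egr1 (2.68 ± 1.26), Jund (1.80 ± 1.39), Fosl2 (0.899 ± 0.449) and Fos (0.697 ± 0.840). The ranges of mean ± SD did not overlap between Junb and Jun and between Atf3 and Egr1, while the other neighbours in this order lay within their spread. In CTR-LPS it was Junb (1147 ± 669), Ier2 (822 ± 93.5), Jun (165 ± 51.8), Egr1 (122 ± 27.5), Fos (64.1 ± 9.28), Fosl2 (26.2 ± 6.59), Atf3 (10.7 ± 2.95) and Jund (4.95 ± 2.51). Here only Junb and Ier2, and Jun and Egr1, lay within their spread. Atf3 was thus the fourth of the members after PBS and the seventh after LPS. The place of Jund in both orders is uncertain because of its overlap with Gm11175.

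The other genes of the pathway were described by lists. Of 30 other immediate early genes 26 were tested, of which 20 rose and 2 fell in CTR and 18 rose and 2 fell in ELS, where 14.9% and 12.3% of all genes were called in either direction. The median of the list was 3.09 and 2.80 on the log2 scale. Dusp1, a phosphatase that switches off MAP kinases, rose by 7.16 ± 0.59 in CTR, from a median of 2.77 to 583 CPM. Gadd45b, a stress-response gene, rose by 6.15 ± 0.85. Arc, a gene known from neurons, was called from reads in 4 of 7 CTR-LPS mice against none in CTR-PBS (mean 19.07 times the floor). In ELS the largest were Ccn1, a secreted matrix protein (mean 79.8 times the floor, 0.769 to 2.43 CPM after LPS), Gadd45b (6.96 ± 0.97) and Dusp5 (6.87 ± 1.41). The genes that fell were Rgs2, a regulator of G-protein signalling (by 3.19 in CTR and 2.49 in ELS), and Dusp6 (by 0.51 and 0.60).

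**Figure D4:**
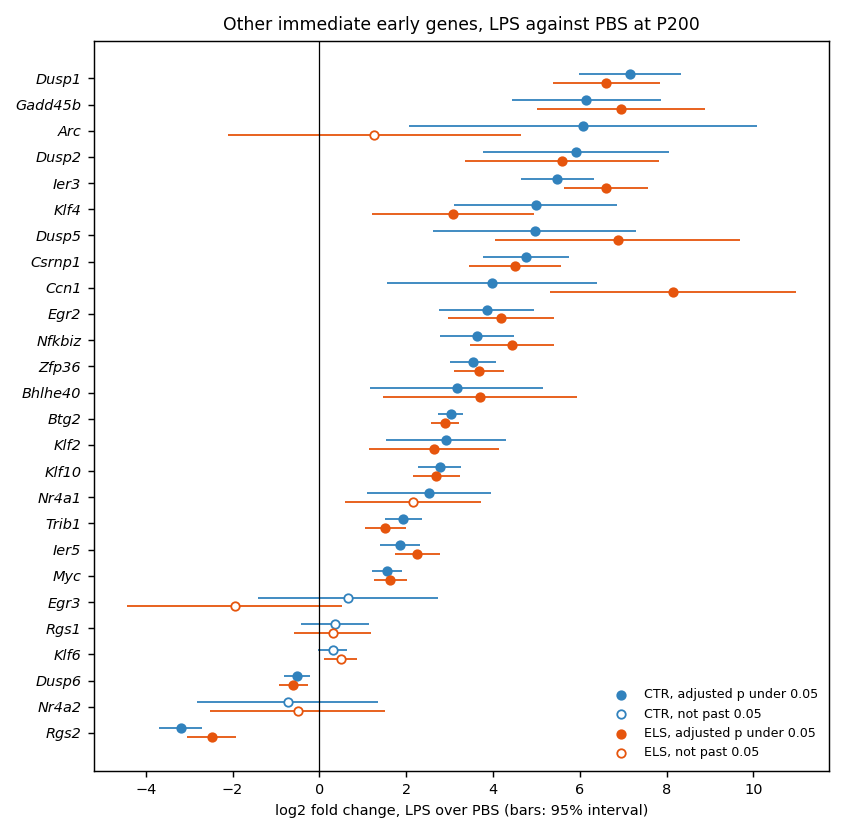
Log2 fold change of LPS over PBS for the 26 other immediate early genes tested, in CTR and ELS mice, with bars for the 95% interval and filled points for an adjusted p under 0.05. The filled points lie to the right of 0 for 20 genes in CTR and 18 in ELS, and to the left for Rgs2 and Dusp6 in both.

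The other lists stand beside the same shares of 14.9% and 12.3% over all genes. Of 11 other bZIP partners tested, 4 rose and 2 fell in CTR and 5 rose and 2 fell in ELS. Maff, a small Maf protein without a transactivation domain, rose by 4.51 ± 0.68 in CTR and 4.15 ± 0.72 in ELS, Batf, which pairs with Jun proteins in place of Fos, by 2.98 ± 0.26 and 3.45 ± 0.30, and Mafk by 2.13 ± 0.51 in CTR. In ELS the third was Atf4, the factor of the integrated stress response (2.03 ± 0.26). Of 21 MAP kinase and SRF genes 5 rose and 2 fell in CTR and 3 rose and 0 fell in ELS, the latter near the share over all genes. They were led by Map3k8, the kinase that couples Toll-like receptors to ERK (4.55 ± 0.24 and 4.49 ± 0.26). Map2k3, a kinase of p38, rose by 2.02 ± 0.33 and 2.29 ± 0.37, Map2k7 rose by 1.21 ± 0.37 in CTR and Mapkapk2 by 1.56 ± 0.28 in ELS.

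Nab1 and Nab2, corepressors that bind EGR proteins, rose by 3.02 ± 0.49 and 3.29 ± 0.39 in CTR and by 2.90 ± 0.54 and 3.47 ± 0.43 in ELS, while of the list of 6 restraints on AP-1 and EGR proteins Itch, a ligase that marks Jun proteins for degradation, fell in CTR (by 0.45). Of 15 textbook AP-1 targets 11 were tested, of which 6 rose and 1 fell in CTR and 5 rose and 1 fell in ELS. Spp1 (osteopontin) rose by 5.13 ± 0.54 and 3.84 ± 0.55, the chemokine Ccl2 by 4.39 ± 0.35 and 5.24 ± 0.39, and Plaur, the urokinase receptor, by 3.47 ± 0.39 and 3.76 ± 0.44, while urokinase itself (Plau) fell by 1.65 and 1.16. Of 6 heat shock genes tested, which dissociation also induces, 0 rose and 1 fell in CTR (Hsph1, by 0.95) and 1 rose in ELS (Dnajb1, 0.61 ± 0.17).

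ELS against CTR was compared at P9, after PBS and after LPS, to ask whether early-life stress moved these genes. At P9 no member was called, and edgeR called 0 of all genes (0%) with 914 at an unadjusted p under 0.05, none of them a member, beside 1 gene by its likelihood-ratio test and 0 by DESeq2. The 95% intervals were narrower for Jun (-0.37 to 0.41) and Atf3 (-0.44 to 0.40) than for Fos (-1.22 to 0.69) and Fosl1 (-2.38 to 1.06). These intervals treat each mouse as independent. The P9 mice came from 5 CTR and 4 ELS nests, so that the intervals can be too narrow for an effect of the rearing condition. After LPS no member was called either, with 0 of all genes called (0%) and 798 at an unadjusted p under 0.05, beside 10 by the likelihood-ratio test and 2 by DESeq2. The intervals were -0.18 to 0.95 for Jun, -0.33 to 1.15 for Junb, -0.61 to 1.03 for Egr1 and -1.18 to 1.34 for Fos, so that a difference of 2-fold lay inside the interval of Junb, Egr1 and Fos.

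After PBS 0 of 9 members were called, beside 0.168% of all genes. Jun was higher in every ELS-PBS mouse (166 to 219 CPM) than in every CTR-PBS mouse (64.0 to 165 CPM), which 0.204% of all genes were. The difference of 0.62 ± 0.27 (0.08 to 1.16) did not pass the adjustment (p = 0.0264, adjusted p = 0.404) and was 0.50 without the library with few detected genes. Atf3 went the other way, at a median of 26.6 CPM in ELS-PBS and 41.8 CPM in CTR-PBS with overlapping groups (-0.67 ± 0.29, adjusted p = 0.400). Fosl1 also had an unadjusted p under 0.05, from reads in 3 of 6 ELS-PBS mice against none in CTR-PBS (adjusted p = 0.280). Its ELS-PBS mean was 2.72 times a floor of 3 counts over CTR-PBS, a ratio that leaves out the spread between mice. Of the pathway lists, Map2k2, a kinase of ERK, was the gene called (median of 45.8 CPM in ELS-PBS and 20.4 CPM in CTR-PBS, adjusted p = 0.0466). Of the marker lists, the astrocyte gene Gfap was lower in ELS-PBS (at most 0.362 CPM, median of 1.23 CPM in CTR-PBS, log2 difference -3.58, adjusted p = 0.0466), and its part in these values was not tested.

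The interaction of ELS and LPS asked whether the response differed between conditions. It was called for 0 members and 0 of all genes (0%), with 980 genes at an unadjusted p under 0.05, none of them a member, beside 66 by the likelihood-ratio test and 11 by DESeq2. The smallest adjusted p was 0.857, for Atf3 (0.82 ± 0.42, interval -0.02 to 1.66), whose median after LPS was 22.7 CPM for CTR mice and 26.2 CPM for ELS mice. For Ier2 the interval was -0.85 to 1.25 and for Junb -0.87 to 1.19. Each nest belonged to 1 condition within an age, so that the conditions were compared between nests, with 4 or 5 nests each.

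P200 PBS mice were compared with P9 mice for the change with age. The PBS mice are the same as in the LPS comparisons. They had an i.p. injection 3 h before they were killed, while the P9 mice had none. The ages were separate cohorts, and Percoll was used for adult tissue only. Age, injection, cohort and isolation thus cannot be told apart. In CTR 5 of 9 members were higher at P200, where 44.1% of all genes were called in either direction. In ELS 6 of 9 were called and higher, against 42.2% of all genes. None was lower. In limma voom with the nest as random effect 3 were higher in CTR (Junb, Atf3 and Egr1) and Fos was lower (-2.32, adjusted p = 0.0488). Of all genes 2911 were higher in CTR and 2863 in ELS. Ages did not overlap for Junb and Atf3 in CTR and for Jun in ELS, beside 6.56% and 4.6% of all genes higher without overlap. Neuron and border-associated macrophage markers fell with age over the same mice (8 of 8 and 5 of 5 in CTR, 6 of 8 and 5 of 5 in ELS), and so did 4 of 5 astrocyte markers in both conditions, such as Gfap (-4.97 and -8.21), while Slc1a3 rose. Of 8 microglia markers 5 rose in both conditions, such as Tmem119 (2.01 in CTR), and 1 fell. Their part in these results was not tested.

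Egr1 was 0.829, 3.54 and 5.65 CPM in P9-CTR (lowest, median, highest) and 0, 3.27 and 7.89 CPM in P9-ELS, against medians of 11.5 and 17.6 CPM after PBS at P200. It rose by 1.73 ± 0.34 (adjusted p = 4.7e-05) in CTR mice and 2.34 ± 0.34 (adjusted p = 2.01e-07) in ELS mice. Junb was 34.9, 74.9 and 101 CPM in P9-CTR and 3.75, 57.2 and 168 CPM in P9-ELS, and rose by 1.40 ± 0.30 in CTR, where ages did not overlap, and 1.74 ± 0.30 in ELS (adjusted p = 0.000119 and 4.91e-06). Atf3 was 8.82, 13.2 and 18.21 CPM in P9-CTR and 7.38, 10.2 and 25.4 CPM in P9-ELS. It rose by 1.70 ± 0.24 in CTR (adjusted p = 7.83e-08), without overlap, and by 1.05 ± 0.25 in ELS (adjusted p = 0.000497). Atf3 was thus called with age in both conditions and after LPS in neither. Fos, at 0.881, 1.86 and 5.2 CPM in P9-CTR, was not called with age in CTR (-0.50 ± 0.57, adjusted p = 0.512).

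Fosl2 was 1.3, 4.04 and 8.70 CPM in P9-CTR and rose by 1.03 ± 0.34 (adjusted p = 0.0115) in CTR and 1.54 ± 0.34 (adjusted p = 0.000247) in ELS. Jun was 48.4, 95.2 and 131 CPM in P9-CTR, and its rise was called in ELS (1.06 ± 0.23, adjusted p = 0.000217) and not in CTR (0.46 ± 0.23, adjusted p = 0.102). In CTR Jun passed without the 3 libraries with few detected genes (0.57, adjusted p = 0.00406), as did Jund (0.71, adjusted p = 0.0391). Ier2 was 12.2, 18.25 and 29.8 CPM in P9-CTR and rose by 0.82 ± 0.30 (adjusted p = 0.0259) in CTR mice and 1.35 ± 0.31 (adjusted p = 0.000365) in ELS mice. The CTR call of Ier2 was lost without P200_5.2_CTR_PBS, P200_15.1_CTR_PBS or P200_18.1_CTR_PBS (0.58, 0.75 and 0.72). With the nest as random effect in limma voom the CTR calls of Fosl2 (0.79, adjusted p = 0.205) and Ier2 (0.65, adjusted p = 0.164) were lost. The interaction of ELS and age was called for 0 members and for 0.0299% of all genes, so that no difference between the conditions was shown for Jun.

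**Figure D5:**
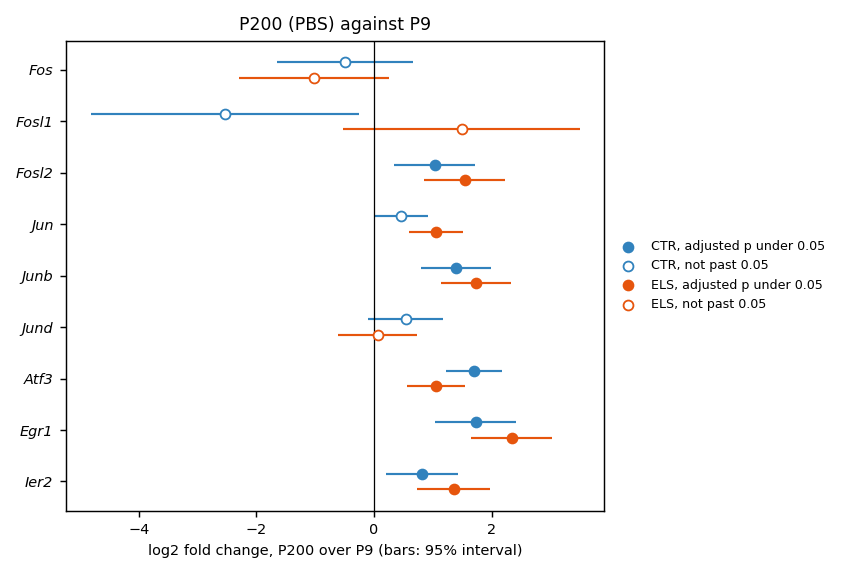
Log2 fold change of P200 PBS mice over P9 mice for the 9 members tested in CTR and ELS, with bars for the 95% interval and filled points for an adjusted p under 0.05. Fosl2, Junb, Atf3, Egr1 and Ier2 are filled to the right of 0 in both conditions, Jun only in ELS, and the intervals of Fosl1 are the widest.

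Of the other immediate early genes 10 rose and 5 fell with age in CTR and 9 rose and 3 fell in ELS. Ccn1 fell by 6.94 in CTR (1.08 to 0 CPM at the median), and in ELS its P9 mean was 103.7 times the floor at P200. Nr4a2, a nuclear receptor, fell by 5.06 and 2.89, and Rgs1, a regulator of G-protein signalling, rose by 3.65 ± 0.35 in ELS. For Arc in CTR the P9 mean was 15.5 times the floor at P200. Over all genes 44.1% were called in CTR and 42.2% in ELS. The count of other immediate early genes in ELS (12 of 26 called) was near this share. The counts of the bZIP partners, of the MAP kinase and SRF genes and of the restraints were near or under the shares in both conditions. Of 11 bZIP partners 4 rose and 1 fell in CTR and 4 rose and 0 fell in ELS, and of 21 MAP kinase and SRF genes 4 rose and 3 fell in CTR and 2 rose and 1 fell in ELS. Of 6 restraints 1 rose and 2 fell in CTR and 0 rose and 1 fell in ELS. Of 11 AP-1 targets 4 rose and 3 fell in CTR and 4 rose and 4 fell in ELS, among them Spp1, which fell by 7.61 and 6.91. Of 6 heat shock genes 4 rose and 1 fell in CTR and 2 rose and 2 fell in ELS, with Hspa1a at 3.39 ± 0.76 and 3.33 ± 0.76.

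Between mice of a group, members moved together only in part. Pearson's r of log2 CPM after subtraction of the group means, over 50 mice, was above 0.5 for 3 of 36 pairs, Jun with Junb (0.779), Jun with Ier2 (0.770) and Junb with Ier2 (0.608), with a median of 0.03 over the pairs. Without the 3 libraries with few detected genes these were 0.482, 0.326 and 0.014, and the highest was Jun with Egr1 (0.583). The points share library depth and base composition, and r is given as a description. The count-weighted GC content of a library, which ranged from 47.6 to 51.06% over the mice, had an r of 0.829 with Junb (0.685 without the 3 libraries), 0.652 with Jun (0.465) and -0.035 with Atf3 (0.038). Its median was 49.2% in CTR-PBS, 49.3% in ELS-PBS, 49.3% in CTR-LPS and 49.7% in ELS-LPS, and its part in the values of Junb and Jun was not tested.

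The genes closest to each member by this measure are given with r over all mice and then r without the 3 libraries. For Junb they were Tsc22d4 (0.943 and 0.870), Arhgdia (0.942 and 0.844) and Ppp1r18 (0.942 and 0.892), and for Jun they were Junos (0.967 and 0.910), Gm20512 (0.939 and 0.816) and Atp13a1 (0.907 and 0.721). Junos is the antisense gene that shares exon bases with Jun. For Ier2 they were Mlf2 (0.846 and 0.568), D830050J10Rik (0.826 and 0.444) and Anapc2 (0.824 and 0.532), for Egr1 Zfp790 (0.782 and 0.445), Prr5l (0.755 and 0.434) and Ets2 (0.745 and 0.502), and for Fosl2 Stat5b (0.808 and 0.589), Ston2 (0.807 and 0.576) and Adar (0.796 and 0.547). All 9 values were lower without the 3 libraries. Atf3 was closest to the chemokines Ccl3 (0.707 and 0.734) and Ccl4 (0.638 and 0.633), then Kif22 (0.611 and 0.603). For Fos they were Zkscan5 (0.630 and 0.544), Slf2 (0.624 and 0.413) and Aldh3a2 (0.595 and 0.501), and for Jund Rsf1 (0.668 and 0.560), Faim (0.625 and 0.426) and Ddx3x (0.614 and 0.424). Fosl1 was closest to Ccar1 (0.539 and 0.604), Tex2 (0.492 and 0.524) and Nt5c2 (0.468 and 0.542).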

How the data were processed

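Microglial poly-A RNA of 50 mice was sequenced, 1 library per mouse (NEBNext Low Input kit). The authors trimmed reads (cutadapt 2.10), mapped them to GRCm39 with STAR, counted unique exonic reads per gene (HTSeq 0.11.0) and deposited these raw counts without normalization. The annotation release and the strand setting are not given in the sources used here. Groups were taken from the labels.

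Counts were normalized by TMM in edgeR 4.0.16 (R 4.3.3). The 16696 of 53700 genes with more than 2 mice at or above 1 CPM entered edgeR's quasi-likelihood test, with a mean for each of the 6 groups, and p-values were adjusted by Benjamini-Hochberg over all of them. A gene was called with an adjusted p under 0.05. Standard errors were derived from the F statistic. For correlations, log2 CPM was computed with 2 as prior count. Simulated data were used to check the fit. The groups hold separate mice, several of which share a nest, so that p-values measure the spread between mice. Intervals rest on the standard errors, while floors (3 counts over a group) cover counting error only. A group mean given as a multiple of a floor leaves out the spread between mice. Total counts of 5152838 to 42231258 per mouse set the precision of low genes such as Fos after PBS.

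Promoters, GC content and exon positions came from GRCm39 with GENCODE annotation, of which 99.35% of the tested genes had a GC value (Python 3.11.15, numpy 2.4.6, pandas 2.3.3). Alternatives were edgeR's likelihood-ratio test, DESeq2 1.42.0, its size factors in edgeR, 2 other filters, only the groups compared, leaving out each mouse, a limit of 1 on the log2 fold change, a replicate block and limma 3.58.1 voom in which the nest was a random effect. A fit without 3 libraries was chosen after seeing the data. All 10 members were named, and of each list the 3 largest changes among the genes called. For each member the 3 genes with the highest within-group r and a mean log2 CPM of at least 3 were named. The members and lists were chosen with earlier results of these data known.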

Additional observations from a re-analysis of the deposited data

Results flagged for a closer look

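Of 36 sets of a member in a group of 4 to 10 mice, 3 held a mouse far from the others by Dixon's test. For normally distributed values chance flags about 1 in 20. This rate need not hold for CPM, such as Fosb with reads in 2 of 7 CTR-PBS mice. Mouse P200_15.1_CTR_PBS was the highest of CTR-PBS for Fosb (0.855 CPM, next 0.0397) and for Jund (7.98 CPM, next 3.15). Mouse P200_1.2_CTR_LPS was the highest of CTR-LPS for Jund (17.12 CPM, next 8.88). Without the first of these mice the log2 fold change of Jund after LPS in CTR was 1.92 (adjusted p = 7.2e-05), and without the second it was 1.18 (adjusted p = 0.0213).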

How the results depend on the processing

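The count of members called in either direction moved by at most 1.5 times in each comparison, while that of members higher with age in CTR went from 5 to 3 in limma voom. The 8 members that rose after LPS in CTR and in ELS kept their calls in all 50 fits that left out a mouse and in 9 other fits. In each condition most of the 50 left out a mouse that was in neither group compared, so that these fits test the call little. Such fits also enter the 4725 values that follow. Of 4725 values recomputed for the members, 4666 kept direction and side of the threshold, 5 lost a call, 14 gained one and 40 changed sign, none of the last with a call. In limma voom with the nest as random effect, Jun in ELS versus CTR was -0.11 at P9, Fos in ELS versus CTR 0.99 after PBS and -0.01 after LPS, the ELS and LPS interaction -0.995 for Fos and -0.10 for Ier2, and the ELS and age interaction of Fos 2.26. In this fit Fosl2 and Ier2 lost their call with age in CTR (0.79 and 0.65) and Fos gained one (-2.32, adjusted p = 0.0488). Its median over all genes was shifted by -0.22 in that comparison. Without the 3 libraries with few detected genes, ELS versus CTR was 0.086 for Egr1 at P9 and -0.052 for Ier2 after PBS. The cause of these changes was not tested.

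When each mouse was left out in turn, ELS versus CTR at P9 ranged from -0.14 to 0.034 for Atf3, -0.047 to 0.12 for Jun, -0.30 to 0.0046 for Egr1, -0.26 to 0.021 for Junb and -1.79 to 0.19 for Fosl1. After PBS it was -0.051 to 0.35 for Ier2, and after LPS -0.22 to 0.23 for Fos. LPS versus PBS in ELS was -0.12 to 0.31 for Atf3, and the ELS and LPS interaction -0.073 to 0.37 for Ier2. With age, Jund in ELS was -0.0096 to 0.19 and the interaction of Fos -0.87 to 0.041. Leaving out P9_9.3_ELS, P9_19.2_ELS or P200_1.1_CTR_PBS added a call with age for Fosl1 (-2.54 in CTR, 2.63 in ELS) or Jun (0.46 and 0.57 in CTR).

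At P200, PBS and LPS mice of the same nest number showed little shared deviation, with r from -0.041 to 0.084 over 10 nests. The nests of the P9 mice were not part of this check. PBS and LPS mice were therefore not paired in the main test. With 1 or 2 mice per nest and treatment, so low an r cannot exclude an effect of the nest. In limma voom the consensus correlation within a nest was 0.078. With the nest as a replicate block 9 of 9 members were called after LPS in CTR, since Atf3 passed (-0.80, adjusted p = 0.0143), and 8 in ELS, and the interaction of Ier2 was -0.29. Depth limits Fos and Fosl1 after PBS, where mice without a read occurred, and the fold changes of both depend on this.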
